A study of Rattus norvegicus with 6 samples.

Results

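The endogenous opioid system was examined in the amygdala of adult male Sprague Dawley rats 1 h after an intraperitoneal injection. The members were fixed by name as the 4 opioid peptide precursors Pdyn, Penk, Pomc and Pnoc and the 4 opioid receptors Oprm1, Oprd1, Oprk1 and Oprl1. They make up 8 of the 38445 genes counted. The rule was a list of names and used no measured value, although the list was chosen with earlier results of these data known. Control rats received saline and ethanol rats received ethanol at 1 g/kg, and all were wild type. Each library held the pooled RNA of 2 rats, the 6 rats of a group thus giving 3 libraries, and a p-value measures the spread between such pools. The tissue held the central, medial and basolateral nuclei together, so a level could not be assigned to a nucleus, and in bulk RNA fewer cells of a type and less RNA per cell cannot be told apart.

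Opioid peptides are cut from larger precursors. Penk encodes the enkephalins, which act on delta and mu receptors, Pdyn the dynorphins, which prefer the kappa receptor, Pomc beta-endorphin together with ACTH and the melanocortins, and Pnoc nociceptin. Oprm1, Oprd1 and Oprk1 encode the mu, delta and kappa receptors, and Oprl1 encodes the nociceptin receptor, and all of them couple to inhibitory G proteins. In the amygdala, enkephalin, dynorphin and nociceptin are made by GABA neurons of the central nucleus, and the intercalated cell masses are known for dense mu receptors. These peptides and receptors have long been studied in alcohol drinking and in anxiety.

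The sequence just before the transcription start is shown for the members with an entry, and no other sequence was compared. RefSeq promoter entries, on the GRCr8 build, matched 4 of the 8 members, with a pair of starts for Oprm1. Each line gives the 150 bases before the start, 5′ to 3′ on the strand of the gene, and the coordinates are those of GRCr8 and not of the build used for counting.
Pdyn, chr3:137366504-137366653, - strand: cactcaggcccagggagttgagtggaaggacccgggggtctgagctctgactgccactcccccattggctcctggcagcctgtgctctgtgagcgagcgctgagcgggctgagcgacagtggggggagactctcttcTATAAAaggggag
Pomc, chr6:32659203-32659352, + strand: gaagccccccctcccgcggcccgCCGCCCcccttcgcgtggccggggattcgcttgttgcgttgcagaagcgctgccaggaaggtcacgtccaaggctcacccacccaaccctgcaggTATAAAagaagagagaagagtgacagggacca
Oprd1, chr5:149625000-149625149, - strand: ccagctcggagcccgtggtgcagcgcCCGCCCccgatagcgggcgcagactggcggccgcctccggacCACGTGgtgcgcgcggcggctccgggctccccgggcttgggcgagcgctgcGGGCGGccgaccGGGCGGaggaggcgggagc
Oprm1, chr1:45565221-45565370, + strand: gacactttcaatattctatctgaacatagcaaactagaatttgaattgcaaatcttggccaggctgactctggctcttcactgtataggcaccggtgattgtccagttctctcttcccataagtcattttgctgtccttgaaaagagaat
Oprm1, chr1:45585833-45585982, + strand: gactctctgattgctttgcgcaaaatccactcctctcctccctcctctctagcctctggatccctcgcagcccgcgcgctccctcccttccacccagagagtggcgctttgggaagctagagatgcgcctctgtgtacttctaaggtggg
Capitals mark TATAAA in Pdyn and Pomc, CACGTG in Oprd1, and GGGCGG in Oprd1 and, as its reverse complement, in Oprd1 and Pomc. The search covered both strands of the 250 bases before each start, and a position gives the first base of a match, counted back from the start. TATAAA, the core of a TATA box, began at position -13 in Pdyn and at position -32 in Pomc and was found in 12.9% of 33469 promoters. It had no match in Oprd1 or at either start of Oprm1. Oprd1 held the E-box CACGTG at position -82, a hexamer present in 5.59% of promoters, and 4 matches to GGGCGG, the core of a GC box, which 30.5% of promoters hold. The GC content of these 250 bases was 79.6% in Oprd1, against a median of 51.2% over all promoters. At the starts of Oprm1 it was 36.4% for the upstream start and 58.4% for the downstream start. Neither TGACGTCA, the full CREB element (1.59% of promoters), nor TGANTCA, the AP-1 element (6.34%), was present in the windows of these 4 genes. These matches describe letters in the window and do not show that a site is used.

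The libraries held between 62576504 and 70755739 reads assigned to genes, and 3 counts corresponded to 0.0422 to 0.0473 CPM (read counts relative to the TMM-scaled library size), a floor that covers counting error only. Pairs of libraries from the same group lay further apart than counting error alone would give (chi-square of 15.3 to 72.6 per degree of freedom). All 6 central amygdala markers were detected, although other brain regions express them too. The libraries also differed in the levels of markers of neighboring tissue. Whether this came from the tissue taken or from ethanol was not tested. The summed level of 5 choroid plexus markers (Ttr, Folr1, Kcnj13, Kl and Clic6) was 499 to 1080 CPM in controls and 10.7 to 461 CPM after ethanol, with 3 of the 5 lower after ethanol at an unadjusted p below 0.05 and with ethanol 3 nearest to the controls. The summed level of 6 hypothalamic markers (Hcrt, Pmch, Avp, Oxt, Agrp and Cartpt) was 22.4 to 122 CPM in controls and 35.8 to 332 CPM after ethanol. It was highest in ethanol 3, where Pmch alone was at 206 CPM. These markers differed among themselves. Hcrt, Pmch and Avp were highest in ethanol 3, but Oxt in control 1 (39.2 CPM), Cartpt in ethanol 2 (24.0) and Agrp in ethanol 1 (0.561). Neuronal, oligodendrocyte and microglial marker sums overlapped between the groups.

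To ask whether 1 h of ethanol changed opioid gene expression, the groups were compared for all genes and the members were read from that comparison. None of the 8 members differed between ethanol and control beyond the spread between libraries. By the quasi-likelihood test of edgeR, adjusted by Benjamini-Hochberg, 0 of 8 members had an adjusted p below 0.2, as did 0 of all 18141 genes tested (0% called). At an unadjusted p below 0.05 there were 0 of 8 members, against 4.15% of all genes tested (1.57% higher and 2.57% lower after ethanol). DESeq2, run without that test's filter on low counts, called 81 of 27719 genes tested at the same adjusted threshold, of which 0 were members. All 8 members passed the filter on low counts. Their unadjusted p from edgeR ran from 0.136 for Pnoc to 0.876 for Oprl1, and two-sided exact permutation p from 0.2 to 0.9. The groups overlapped for every member, where 8.85% of all genes tested had groups that did not overlap (3.66% higher and 5.19% lower). Means were higher after ethanol for 6 of 8 members, against 52.6% of all genes tested, and lower for Pomc and Pnoc. The members had a median log2 fold change of 0.04, against 0.01 over all genes tested.

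**Figure D1:**
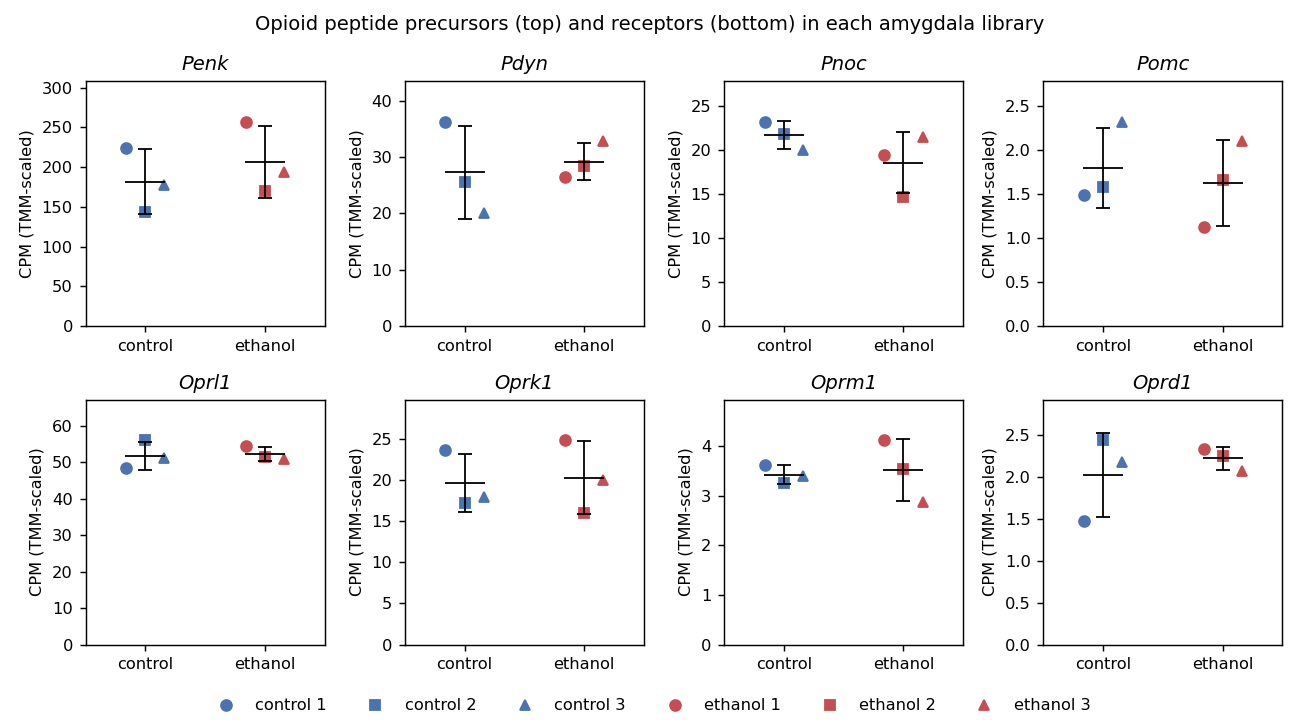
Level of each precursor (top row) and receptor (bottom row) in CPM, scaled by TMM, in the 3 control and 3 ethanol libraries, with a symbol for each library and the mean ± SD of each group in black. Each vertical axis starts at 0 and has its own range, and the libraries of the groups overlap in all 8 panels.

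Among the precursors, Penk (NCBI gene 29237, chromosome 5 of Rnor_6.0 from 17056412 to 17061762, 3 exonic blocks) was the most abundant. Its level was 224, 144 and 177 CPM in control libraries 1, 2 and 3 and 257, 169.7 and 193 CPM in ethanol libraries 1, 2 and 3. The highest value came from ethanol 1 and the lowest from control 2, and the groups overlapped. The means were 182 ± 40.3 CPM in controls and 207 ± 45.0 CPM after ethanol (SD, n = 3 each), a log2 fold change of 0.18 (SE 0.19, edgeR adjusted p = 1.00). The 95% interval of the ethanol to control ratio was 0.835 to 1.55, so a rise larger than 1.55 or a level below 0.835 of control lay outside it. Without ethanol 1, the log2 fold change of Penk was -0.0013.

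Pdyn, the dynorphin precursor (NCBI gene 29190, chromosome 3 from 122194327 to 122206671, 4 exonic blocks), was measured at 36.2, 25.5 and 20.1 CPM in the control libraries. The ethanol libraries held 26.5, 28.3 and 32.8 CPM. Both the highest and the lowest library were controls, and the ethanol values lay between them. The means were 27.3 ± 8.22 and 29.2 ± 3.25 CPM (SD, n = 3 each), a log2 fold change of 0.10 (SE 0.20, edgeR adjusted p = 1.00), with a 95% interval of the ratio from 0.778 to 1.47. Control 1 and control 3 set this value in opposite directions. Without control 1 the log2 fold change of Pdyn was 0.35 (edgeR unadjusted p = 0.0402, adjusted p = 1.00), and without control 3 it was -0.080.

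Pnoc, the nociceptin precursor (NCBI gene 25516, chromosome 15 from 48805841 to 48833071, 4 exonic blocks), was the member with the smallest unadjusted p. Control libraries held 23.2, 21.9 and 20.1 CPM, and ethanol libraries 19.5, 14.7 and 21.5 CPM. Ethanol 2 was the lowest and ethanol 1 the next lowest, but ethanol 3 lay within the control range. The means were 21.7 ± 1.59 and 18.6 ± 3.46 CPM (SD, n = 3 each), a log2 fold change of -0.23 (SE 0.14, edgeR adjusted p = 1.00), and exact permutation of the library labels gave a two-sided p of 0.2, where 3 libraries against 3 cannot go below 0.1. The 95% interval of the ratio was 0.686 to 1.06. Pnoc was the only member whose log2 fold change kept its sign with each library left out in turn, from -0.34 to -0.085. The first of these was without ethanol 3, with an unadjusted p of 0.0344 and an adjusted p of 0.529 from edgeR, in a fit where 8.87% of all genes had an unadjusted p below 0.05 and 83 were called.

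Pomc (NCBI gene 24664, chromosome 6 from 28382937 to 28388771, 3 exonic blocks) had the fewest reads of the precursors, with 97, 112 and 147 counts in the control libraries and 72, 107 and 146 counts in the ethanol libraries. In CPM these were 1.48, 1.58 and 2.32 against 1.12, 1.66 and 2.10. The library numbered 3 was the highest of each group. The means were 1.79 ± 0.457 and 1.63 ± 0.488 CPM (SD, n = 3 each), a log2 fold change of -0.14 (SE 0.27, edgeR adjusted p = 1.00). This was the widest interval of the 8 members, from 0.592 to 1.40 for the ratio, and the sign turned without control 3 (0.091) or without ethanol 1 (0.071). Of 3 pituitary markers, Gh1 and Prl were at 0 in all 6 libraries. The other, Cga, the alpha chain shared by the pituitary glycoprotein hormones, was at 0.367, 0.788 and 3.45 CPM in controls and 0.327, 1.41 and 3.72 CPM after ethanol. Cga and Pomc ordered the libraries alike except that control 3 and ethanol 3 changed places. Agrp, which marks the feeding neurons beside the Pomc neurons of the arcuate hypothalamus, lay between 0.347 and 0.561 CPM in every library. The part of neighboring tissue in the Pomc level was not tested.

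Among the receptors, Oprl1 (NCBI gene 29256, chromosome 3 from 177223779 to 177231663, 8 exonic blocks) had the most reads and the steadiest level. Control libraries held 48.4, 56.0 and 51.0 CPM, and ethanol libraries 54.4, 51.5 and 50.7 CPM. The ethanol libraries all lay inside the control range. The means were 51.8 ± 3.86 and 52.2 ± 1.91 CPM (SD, n = 3 each), a log2 fold change of 0.01 (SE 0.07, edgeR adjusted p = 1.00). Its 95% interval was the narrowest of the 8, from 0.901 to 1.13 of control, and the sign turned without control 1 (-0.043), without ethanol 1 (-0.018) and with library size alone in place of TMM (-0.015).

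Oprk1, the kappa receptor (NCBI gene 29335, chromosome 5 from 13742655 to 13760460, 5 exonic blocks), was measured at 23.7, 17.2 and 17.9 CPM in controls. After ethanol it was at 24.8, 16.04 and 20.05 CPM. The library numbered 1 was the highest of each group. The means were 19.6 ± 3.53 and 20.3 ± 4.4 CPM (SD, n = 3 each), a log2 fold change of 0.05 (SE 0.18, edgeR adjusted p = 1.00), with a 95% interval of the ratio from 0.779 to 1.38. The sign turned without control 2 (-0.034), control 3 (-0.0088) or ethanol 1 (-0.12).

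The mu and delta receptors were low. Oprm1 (NCBI gene 25601, chromosome 1 from 43454803 to 43704948, 11 exonic blocks) was at 3.62, 3.25 and 3.39 CPM in controls and 4.11, 3.54 and 2.87 CPM after ethanol. The highest and the lowest library were both from the ethanol group. The means were 3.42 ± 0.188 and 3.51 ± 0.621 CPM (SD, n = 3 each), a log2 fold change of 0.04 (SE 0.15, edgeR adjusted p = 1.00), with an interval of the ratio from 0.802 to 1.31 and a value of -0.093 without ethanol 1. Of its exonic bases, 68 lie opposite an exon of Ipcef1, and the counting used strand. The exons of the other 7 members share no base with another gene on either strand.

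Oprd1 (NCBI gene 24613, chromosome 5 from 150288126 to 150323063, 3 exonic blocks) had 96, 173 and 138 counts in controls and 150, 145 and 144 after ethanol, or 1.47, 2.44 and 2.18 against 2.34, 2.25 and 2.07 CPM. Control 1 stood below the other 5 libraries, which lay close together. The means were 2.03 ± 0.501 and 2.22 ± 0.138 CPM (SD, n = 3 each), a log2 fold change of 0.13 (SE 0.20, edgeR adjusted p = 1.00), with an interval of the ratio from 0.796 to 1.503. Without control 1 the log2 fold change of Oprd1 was -0.064.

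**Figure D2:**
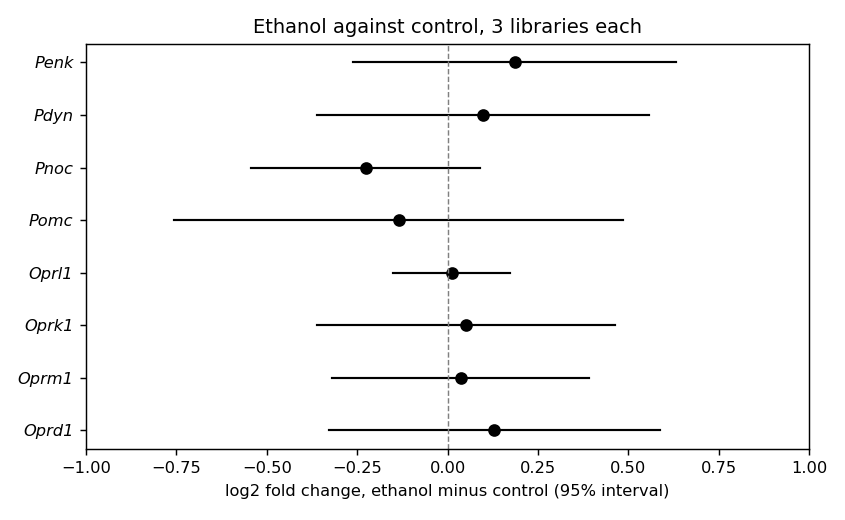
Log2 fold change of each member, ethanol minus control (points), with its 95% interval from edgeR's quasi-likelihood fit of 3 libraries a group (lines). Every interval crosses 0, the narrowest for Oprl1 (ratio 0.901 to 1.13) and the widest for Pomc (ratio 0.592 to 1.40).

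Levels of different genes were compared as CPM per kb of exonic length. Penk was far above the rest, with a median over the 6 libraries of 113 CPM per kb and a lowest library of 88.1. Pnoc (17.5), Oprl1 (11.8) and Pdyn (10.9) followed, then Oprk1 (3.90), Pomc (1.66), Oprd1 (1.56) and Oprm1 (0.713). The ranges of Penk and Pnoc did not overlap, nor did those of Pdyn and Oprk1, of Oprk1 and Pomc, or of Oprd1 and Oprm1. The order depends on the annotated exonic length, which was 1417 bases for Oprd1 and 4862 for Oprm1. In CPM without length, Oprm1 (2.87 to 4.11) lay above Oprd1 (1.47 to 2.44). Ranges overlapped for Pnoc and Oprl1, although Pnoc was higher in 6 of 6 libraries, and for Oprl1 and Pdyn and for Pomc and Oprd1, where the order held in 4 of 6 libraries. Penk made up 74.5% to 84.8% of the summed level of the precursors per library. Among the receptors, Oprl1 made up 62.3% to 68.6% of the sum and Oprm1 3.30% to 4.198%. The precursors together were at 6.28 to 9.70 times the level of the receptors together, per length, and this ratio overlapped between the groups.

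**Figure D3:**
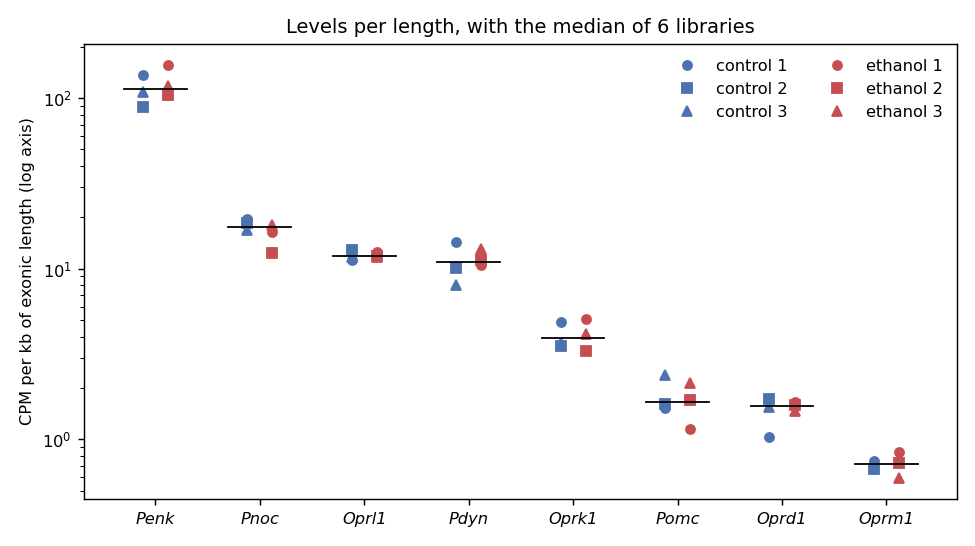
CPM per kb of exonic length (log axis) of the 8 members in 3 control and 3 ethanol libraries, ordered by the median of the 6 libraries (black line). Penk has a median of 113 CPM per kb and Oprm1 of 0.713, and libraries of both groups are mixed within each gene.

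To compare each precursor with a receptor for its peptide, log2 ratios per length were formed in each library for 4 pairs. The ratio of Pdyn to Oprk1 was 1.40 ± 0.25 in controls and 1.496 ± 0.39 after ethanol (log2, SD, n = 3 each), a difference of 0.09. Penk to Oprd1 was 6.27 ± 0.69 and 6.30 ± 0.27, a difference of 0.03, with the highest ratio (7.02) and the lowest (5.66) both in controls. Pomc to Oprm1 was 1.37 ± 0.37 and 1.19 ± 0.70, a difference of -0.18. Pnoc to Oprl1 was 0.62 ± 0.17 and 0.36 ± 0.28, a difference of -0.26. None of the 4 ratios separated the groups, with 2-sided exact permutation p of 0.6, 1, 0.9 and 0.3 in this order and Benjamini-Hochberg adjusted p of 1 for each over the 4 ratios.

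Libraries of the same group differed more for the opioid genes than for most genes. The SD of log2 CPM within a group was 0.32 for Pdyn, 0.31 for Penk, 0.40 for Pomc, 0.28 for Oprk1 and 0.27 for Oprd1, each above the SD of at least 91.0% of the 14241 genes with 1 CPM or more in every library. It was 0.21 for Pnoc and 0.19 for Oprm1, above 83.6% and 78.9% of these genes. Oprl1, at 0.08, lay below their median of 0.11. Counting error at these depths came to 0.883% of the level for Penk and 9.39% for Pomc, against SDs of 22.2% and 25.5% within the controls. It was 8.42% for Oprd1 and 6.61% for Oprm1. The genes compared were not matched to the members by level, and counting error is larger at low counts.

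Penk and Oprk1 shared the same libraries at the top. In log2 CPM centered on the mean of the 6 libraries, they differed by a root mean square of 0.11, the smallest of the 28 pairs of members, whose median was 0.31. Both were highest in ethanol 1 and next highest in control 1, and both were lowest in control 2 and ethanol 2. The 3 intercalated cell markers (Foxp2, Tshz1 and Drd1) had a summed level of 137, 107 and 115 CPM in controls and 149, 119.8 and 141 CPM after ethanol. Ethanol 1 was highest and control 2 lowest in this sum, while ethanol 3 lay above control 1, which it did not for Penk or Oprk1. The markers differed among themselves. Tshz1, the largest part of the sum, was highest in ethanol 1 (88.3 CPM) and lowest in ethanol 3 (73.2). Foxp2 was highest in ethanol 1 (25.2 CPM) and lowest in control 2 (12.8). Drd1 was highest in ethanol 3 (43.2 CPM) and lowest in control 2 (19.6). Drd1 is expressed by striatal neurons as well. The summed level of the 6 central amygdala markers (Prkcd, Calcrl, Sst, Crh, Nts and Tac3) varied less. It was 212 to 244 CPM in controls and 227 to 244 CPM after ethanol. Most of this sum came from Sst, at 132 to 167 CPM over the 6 libraries. Prkcd (20.7 to 24.5 CPM), Calcrl (31.6 to 36.4) and Crh (2.52 to 3.30) had narrow ranges. Those of Nts (6.95 to 16.2 CPM) and Tac3 (5.22 to 21.4) were wide. The part of these cell types in the Penk and Oprk1 levels was not tested.

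Oprd1 and Oprl1 ordered the 6 libraries identically, with control 1 lowest, ethanol 3 next and control 2 highest, and differed by a root mean square of 0.18. Pomc differed from the other members by a root mean square of 0.37 (Oprl1) to 0.53 (Penk). These likenesses rest on 6 libraries and describe them only.

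**Figure D4:**
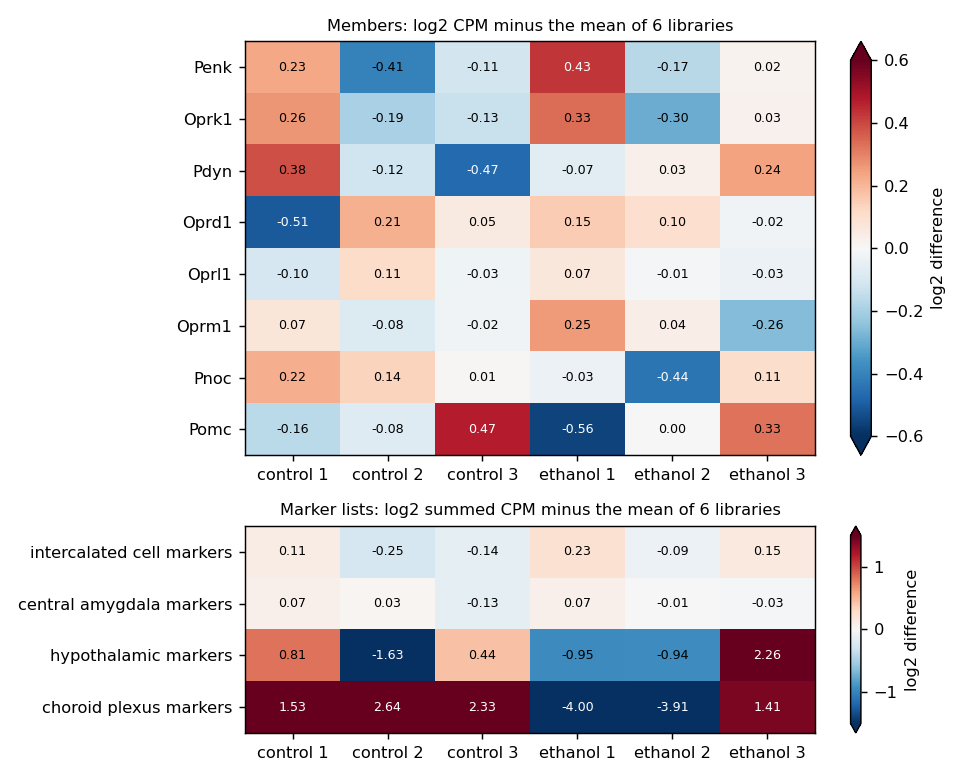
Members (top, log2 CPM) and marker lists (bottom, log2 of the summed CPM plus 0.1), each minus its mean over the 6 libraries, which are the columns. The printed number is the log2 difference, red is above and blue below the mean, and colors stop at the ends of each bar, so most choroid plexus and some hypothalamic values lie beyond the scale. Penk and Oprk1 are highest in ethanol 1 and control 1, and the choroid plexus markers are lowest in ethanol 1 and ethanol 2.

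By the same measure, the genes most like the precursor and the receptor with the widest range of log2 CPM over the 6 libraries, Pomc and Oprd1, were sought among the 14241 genes. The closest of so many genes over 6 libraries lie near by selection, so the differences below test no link between genes. For Pomc they were Bdh2, Sned1 and Asap3, with root mean square differences of 0.07, 0.09 and 0.11 where Pomc itself varied by 0.33. Bdh2, a hydroxybutyrate dehydrogenase, was at 2.17, 2.15 and 2.92 CPM in controls and 1.51, 2.19 and 3.02 CPM after ethanol. For Oprd1 they were Socs1, a suppressor of cytokine signaling, the pseudogene Spin1-ps3 and Meltf, an iron-binding membrane protein, at 0.06, 0.09 and 0.09 where Oprd1 varied by 0.24.

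Genes that make, break down or relay opioid peptides were examined as 33 genes in 5 lists, of which 32 passed the filter. None of the 32 had an unadjusted p below 0.05 from edgeR, against 4.15% of all genes tested. DESeq2 gave 1 (Ace), against 2.41% of the 27719 genes that it tested. Their median log2 fold change was 0.05, against 0.01 over all genes tested. Groups did not overlap for 3 of the 32 (9.38%), against 8.85% of all genes tested. By list, the median log2 fold change was 0.04 in processing, 0.07 in breakdown, 0.06 in G proteins and 0.0029 in receptor regulators. The 3 without overlap were Gnao1 and Grk2, higher after ethanol, and Arrb2, lower.

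In propeptide processing, 0 of 5 tested genes passed in either direction. Cpe, the carboxypeptidase that trims basic residues, was at 2353 CPM in controls and 2289 CPM after ethanol (log2 fold change -0.04), and Scg5, the chaperone of the convertase Pcsk2, was at 411 and 429 CPM (0.06). Pcsk2 itself, which cuts enkephalin and dynorphin from their precursors, was at 119.7 and 128 CPM (0.10). The other gene of this list, Pcsk1n, had a single read over the 6 libraries and was left out of the comparison. Whether this count reflects its expression or the assignment of reads to it was not tested.

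In peptide breakdown, 0 of 7 genes passed. The most abundant were the puromycin-sensitive aminopeptidase Npepps, at 244 and 246 CPM (log2 fold change 0.01), and the endothelin-converting enzyme Ece2, at 82.7 and 76.0 CPM (-0.12). Mme, or neprilysin, the enkephalin-degrading endopeptidase, was at 4.202 and 4.63 CPM (0.14). Ace, which also cleaves enkephalins, had the lowest log2 fold change of the list at -0.52 (edgeR unadjusted p = 0.0673, adjusted p = 1.00), with 26.5, 39.3 and 23.9 CPM in controls and 18.8, 15.96 and 27.9 CPM after ethanol. The order of Ace across the libraries followed the choroid plexus markers in part, since both were lowest in ethanol 1 and ethanol 2 and highest in control 2. The part of that tissue in the Ace level was not tested.

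Downstream of the receptors, 0 of 5 inhibitory G protein genes passed. Gnao1, which encodes the alpha subunit of Go, was at 507, 513 and 486 CPM in controls and 529.9, 567 and 524 CPM after ethanol (log2 fold change 0.11, edgeR unadjusted p = 0.178), and Gnai2 at 349 and 363 CPM (0.06). Of the 9 regulators of receptor signaling, 0 passed. Grk2, a kinase that phosphorylates active receptors, was at 206, 207 and 215 CPM in controls and 227, 216 and 225 CPM after ethanol (0.09), and Arrb1, an arrestin, at 407 and 423 CPM (0.05). Arrb2, the other arrestin, was at 59.3, 58.5 and 58.5 CPM in controls and 55.8, 56.0 and 53.8 CPM after ethanol (-0.09).

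Of the 6 genes that act on Pdyn and Penk transcription, 0 passed. Kcnip3, or DREAM, the calcium-binding repressor of the Pdyn gene, was at 97.7 CPM in controls and 106 CPM after ethanol (log2 fold change 0.12), and Jun, a partner in AP-1, at 92.6 and 92.4 CPM (-0.0046). Log2 fold changes ranged between -0.11 for Creb1 and 0.26 for Fosb, and their median was 0.08.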

How the data were processed

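RNA-seq libraries were prepared from pooled RNA with a strand-specific mRNA kit and sequenced as single-end reads of 100 nt on 3 lanes. Per the submitters' processing notes and the file headers, the authors aligned quality-trimmed reads with STAR 2.7.0f to Rnor_6.0 and deposited raw counts per NCBI gene from featureCounts (Subread 1.6.3), reverse-stranded (setting 2) and summed over exons. Under its defaults, reads that aligned to several places or to more than 1 gene were not counted, which lowers genes with close copies. Symbols were matched through the RefSeq gene table to 29322 of 38445 identifiers.

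The count tables were read into edgeR 4.0.16 (R 4.3.3). The filterByExpr defaults (10 counts at least, 15 in total) left 18141 genes, TMM set the scale, and groups were compared by the quasi-likelihood F test. P-values were adjusted by Benjamini-Hochberg across these genes, at the threshold of 0.2 used in the study. The test itself is not given in the sources used here. SE is the absolute log2 fold change divided by the square root of F. Log2 CPM carries a prior count of 2. Exact permutation tests went through 20 label assignments. Some marker lists are not reported here. DESeq2 1.42.0, other scalings, no filter, the replicate number as a block, and each library left out were alternatives. The members and gene lists were chosen with earlier results of these data known. Named genes are the members, genes of the pathway lists with an unadjusted p below 0.05 or otherwise the 2 with the highest mean count, and the 3 genes most like the precursor and the receptor with the widest range of log2 CPM. Mme, Pcsk2, Ace, Arrb2, Creb1 and Fosb were named after their values were seen.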

Additional observations from a re-analysis of the deposited data

How the results depend on the processing

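The adjusted call did not change for any member: in 88 refitted fold changes of the 8 members, 0 passed the adjusted threshold of 0.2 and the lowest adjusted p was 0.529 (Pnoc without ethanol replicate 3), while 76 kept the direction. The cause of the changes below was not tested. Over all genes, DESeq2 called 81 at an adjusted p below 0.2 against 0 from edgeR, and leaving out 1 library gave 0 to 83 calls (83 without ethanol 3, 4 without ethanol 1). Members at an unadjusted p below 0.05 numbered 0 to 1 with a library left out, in fits where 3.10% to 8.87% of all genes passed. With the replicate number as a block they numbered 1, Penk (log2 fold change 0.19, unadjusted p = 0.0169, edgeR adjusted p = 0.751), where 5.6% of all genes passed. Same-numbered libraries hold different rats. Their deviations from the group means correlated by 0.0264, 0.388 and 0.211 over 14241 genes, and those of differently numbered libraries by -0.427 to 0.305. Whether the numbers mark something that the libraries share was not tested. Pathway genes at an unadjusted p below 0.05 numbered 1 with library size only (Arrb2), 1 without a filter and 1 with DESeq2 (Ace for both). In these fits 4.51%, 3.65% and 2.41% of all genes passed, in this order. With a library left out, pathway genes numbered 0 to 5, the 5 of 32 without ethanol 3, where 8.87% of all genes passed. With library size only, the log2 fold change of Oprl1 was -0.015. Log2 fold changes with a library left out ran from -0.064 to 0.29 for Oprd1, -0.12 to 0.20 for Oprk1, -0.043 to 0.071 for Oprl1, -0.093 to 0.16 for Oprm1, -0.080 to 0.35 for Pdyn, -0.0013 to 0.36 for Penk, -0.34 to -0.085 for Pnoc and -0.36 to 0.091 for Pomc. The differences in log2 ratio ran from -0.051 to 0.32 for Pdyn to Oprk1, -0.27 to 0.40 for Penk to Oprd1, -0.51 to 0.19 for Pomc to Oprm1 and -0.39 to -0.11 for Pnoc to Oprl1. A prior count of 0.5 turned no ratio. Counting error was below the SD within each group for 6 of the 8 members, and above it for Oprm1 in controls (6.61% against 5.50%) and Oprd1 after ethanol (8.42% against 6.20%).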
